A study of Homo sapiens with 8 samples.

Results

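The 10 genes described here encode proteins of the cellular stress response that are linked to the transcription factor p53: CDKN1A, MDM2, PHLDA3, the sestrins SESN1, SESN2 and SESN3, the growth arrest genes GADD45A and GADD45B, and the polo-like kinases PLK2 and PLK3. They were listed by name and matched by gene symbol, which found 10 of 10 among 63677 annotated genes. p53 is stabilised by DNA damage and other stress, binds DNA at a pair of short half-sites and raises the transcription of genes that stop the cell cycle, repair DNA, slow growth signalling or start apoptosis. Several of the 10 genes also answer to other factors: SESN2 is a target of ATF4 in amino acid shortage, SESN1 and SESN3 are targets of FOXO factors, and GADD45B is induced by NF-kB and by mitogen-activated kinase signalling. No protein was measured, so p53 activity itself was not observed.

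RNA was sequenced from DND-41 and MOLT-4, established human cell lines of T-cell acute lymphoblastic leukaemia (T-ALL), each treated for 3 h with ACBI-1 at 100 nM or with the solvent DMSO. ACBI-1 is a proteolysis-targeting chimera that recruits the VHL ubiquitin ligase to the SWI/SNF chromatin remodelling ATPases SMARCA2 and SMARCA4 and to PBRM1. There were 4 groups of 2 libraries, one group for each line and treatment, and no genetic change was made to either line. Each line stands for 1 leukaemia. Whether replicates were separate cultures is not in the labels, so the p-values below reflect the variation among libraries, possibly technical.

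Total counts lay between 19867779 and 20082524 per library, so depth hardly differed. In DND-41, 7 of 8 T-cell markers reached 1 CPM (reads scaled to a common library size) and the pre-T-cell receptor gene PTCRA did not, whereas 8 of 8 did so in MOLT-4. The B-cell receptor gene CD79A had between 31024 and 35375 reads in DND-41 and between 176 and 314 in MOLT-4, while the B-cell markers MS4A1 and PAX5 had at most 2 reads in any library. Erythroid markers had 0 reads in every library and the 4 myeloid markers summed to at most 0.413 CPM. Of 5 epithelial and fibroblast markers, KRT8 and COL1A1 exceeded 1 CPM in MOLT-4, where the 5 summed to between 2.78 and 3.49 CPM, and in DND-41 the sum was at most 0.196 CPM. A share was measured on 35 genes with at least 50 CPM in MOLT-4 and at most 1% of that in every DND-41 library. This rule caps the share at 1%. The second DMSO library of DND-41 held reads of these genes at a median of 0.562% of their MOLT-4 level. The other DND-41 libraries held at most 0.0498%. Where these reads came from was not tested. In bulk samples such as these, fewer cells of a type and less RNA per cell cannot be told apart.

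The promoters of the 4 genes on which the results turn are shown to place them beside the transcript values. Each sequence begins 140 bases before the RefSeq start of the gene (GRCh38.p14) and ends before that start or before the first base that GENCODE release 29 annotates as untranslated region, and for PLK2, where that annotation covers all 140 bases, only 30 bases around a p53 half-site are shown. They run 5′ to 3′ on the strand of the gene, and capitals mark the TATA box, the CCAAT box, the GC box and the p53 half-site, on either strand.
CDKN1A: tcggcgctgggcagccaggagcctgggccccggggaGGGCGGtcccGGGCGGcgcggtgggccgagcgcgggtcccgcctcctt
SESN2: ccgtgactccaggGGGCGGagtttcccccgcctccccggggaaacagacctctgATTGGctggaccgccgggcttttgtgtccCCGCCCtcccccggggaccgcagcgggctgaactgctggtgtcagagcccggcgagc
GADD45B: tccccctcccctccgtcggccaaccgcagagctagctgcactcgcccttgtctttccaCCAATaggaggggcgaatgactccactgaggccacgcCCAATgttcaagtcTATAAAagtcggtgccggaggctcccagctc
PLK2: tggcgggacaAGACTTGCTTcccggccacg
The CDKN1A stretch is chr6:36678574-36678657 on the plus strand. The CDKN1A and PLK2 stretches lie inside the span that GENCODE release 29 gives to their genes, as do the last bases of the GADD45B stretch. The SESN2 stretch is chr1:28259378-28259517 on the plus strand, the GADD45B stretch chr19:2475987-2476126 on the plus strand and the PLK2 stretch chr5:58460199-58460228 on the minus strand. RefSeq promoters were matched for 8 of the 10 genes, the exceptions being GADD45A and PHLDA3.

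Motifs were counted on both strands, overlapping matches included, in the 250 bases before the start of 8 of the 10 genes and of 35116 RefSeq promoters. GADD45B held the TATA box, TATAAA, 31 bases before its start, a motif found in 10.7% of all promoters and in 1 of the 8. CCAAT was present in 3 of 8, among them SESN2 and GADD45B, against 32.0% of all promoters, and the GC box, GGGCGG, in 5 of 8 against 42.6%. A p53 half-site was matched in 1 of 8, PLK2, starting 132 bases before its RefSeq start and inside the first exon of GENCODE, against 5.57% of all promoters. CANNTG, the E-box, was present in 5 of 8 against 61.8%. TGACGTCA (1.65% of all promoters), TGANTCA (6.57%) and TGANGCAA (2.77%) were in 0 of 8 of these windows. These matches describe letters in short windows and say nothing of binding, which was not measured. Sequence further upstream or after the RefSeq start was not searched, so p53 sites there would be missed.

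Within 3 h of ACBI-1 the 10 genes moved in different directions. In DND-41, GADD45B and PLK2 rose while CDKN1A and SESN2 fell, so 4 of 9 tested genes passed 5% adjusted p (edgeR quasi-likelihood test with Benjamini-Hochberg adjustment across the whole table). Of all 14019 tested genes 9.83% passed, 3.78% higher and 6.05% lower (DESeq2 called 4 of the genes and 5.48% of all). SESN3 had too few reads in DND-41 to be tested. In MOLT-4 0 of 10 genes rose in edgeR (5 of the 10 were at an unadjusted p under 0.05, and DESeq2 called 1, a fall) and 4 fell, namely SESN2, SESN3, PLK2 and PHLDA3, beside 10.8% of 14470 genes called in either direction, 3.9% higher and 6.94% lower (6.17% with DESeq2). The median log2 fold change of the tested genes was 0.05 in DND-41 and -0.21 in MOLT-4, where the median of all genes was 0.0029 and -0.00097. SESN2 was the gene that fell in both lines.

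**Figure D1:**
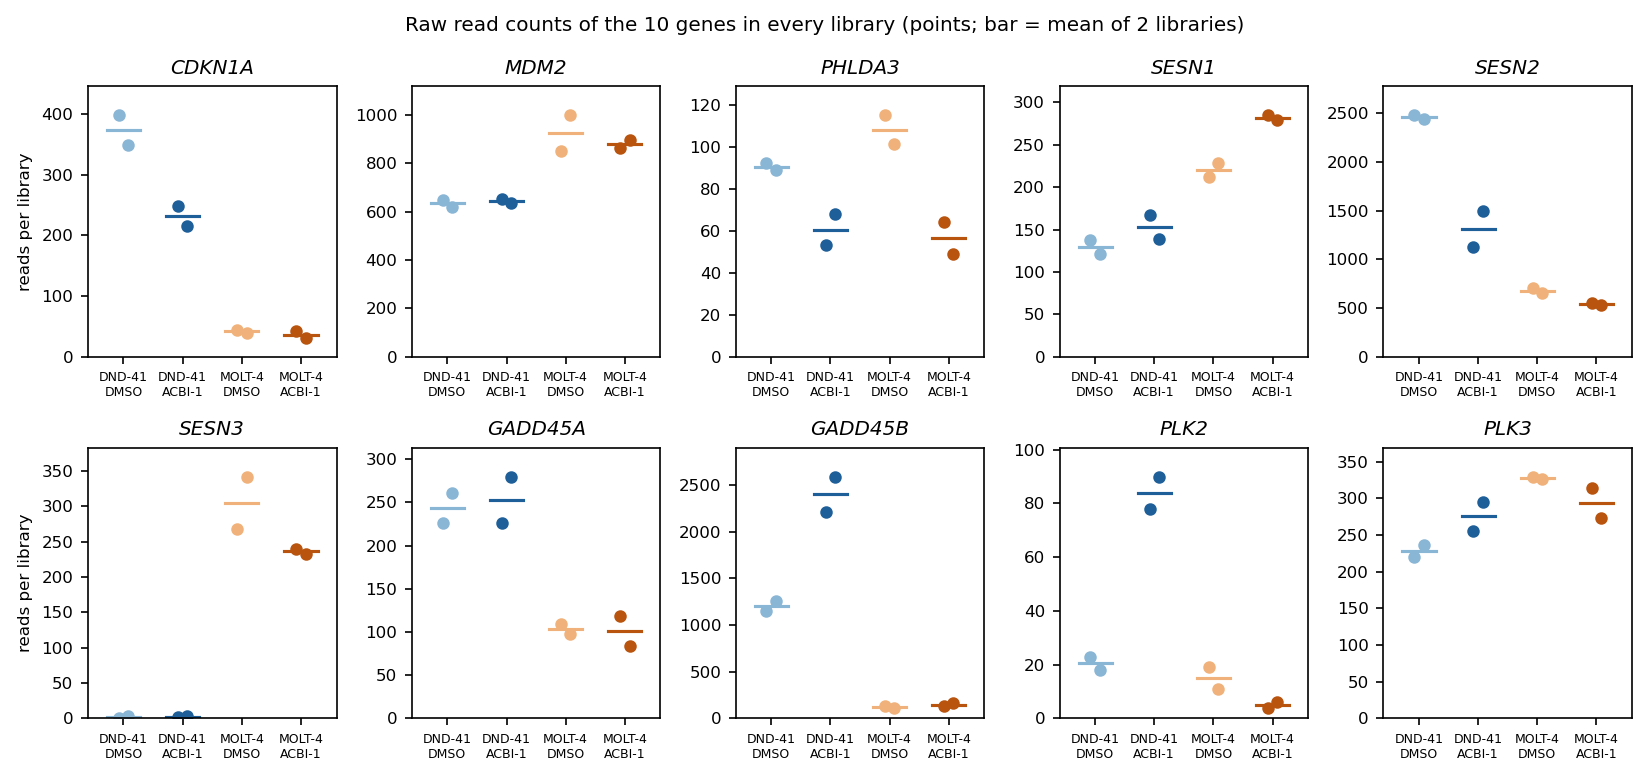
Reads per library (vertical axis, linear, from 0) of each of the 10 genes in the 4 groups of 2 libraries; points are libraries and bars the mean of a group. In DND-41 (blue) SESN2 was at 2480 and 2435 reads in DMSO and at 1130 and 1494 with ACBI-1, while GADD45B went from 1149 and 1259 to 2211 and 2590; SESN3 had at most 3 reads in any DND-41 library.

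Leaving out 1 ACBI-1 library lowered the number of calls, among the 10 genes and over the whole table. Without the first ACBI-1 library of DND-41, 0 of the 9 tested genes passed in edgeR (5 were at an unadjusted p under 0.05), and 3 genes of the whole table did (0.0207%) against 1378 with all libraries. Without the second, SESN2, GADD45B and PLK2 passed, 3 of 9, beside 1.22% of all genes. Without either ACBI-1 library of MOLT-4, 0 of the 10 genes and 0% of all genes tested passed (4 of the 10 were at an unadjusted p under 0.05 each time). Replicates of DND-41 with ACBI-1 were the furthest apart, with a chi-square of 15.6 per gene against 2.99, 4.25 and 5.10 in the other groups. Within a line, calls were fewer over the whole table whenever 1 library was left out. A lost call below therefore does not by itself show that a result rests on that library. The reads per library are given below.

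CDKN1A (ENSG00000124762) encodes p21, the inhibitor of cyclin-dependent kinases through which p53 stops the cell cycle. In DND-41 it had 398 and 349 reads in DMSO and 248 and 216 with ACBI-1. Both ACBI-1 libraries lay below both DMSO libraries, and the transcript fell by 0.70 ± 0.11 on the log2 scale (± SE), a level 1.62-fold lower (edgeR adjusted p = 5.76e-05). In MOLT-4 it had 44 and 40 reads in DMSO and 42 and 31 with ACBI-1, so the groups overlapped, and the log2 fold change was -0.23 ± 0.25 (edgeR adjusted p = 0.665). The difference between the responses, MOLT-4 minus DND-41, was 0.49 ± 0.27 (edgeR adjusted p = 0.724), so the lines were not shown to differ. The DND-41 call was lost without the first ACBI-1 library (-0.81, edgeR adjusted p = 0.130) and without the second (-0.58, adjusted p = 0.0986).

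MDM2 (ENSG00000135679) encodes the ubiquitin ligase that degrades p53 and is itself induced by p53. It had 648 and 620 reads in DMSO and 652 and 634 with ACBI-1 in DND-41, and 850 and 999 against 862 and 897 in MOLT-4. The treatment groups overlapped in both lines. The log2 fold change was 0.01 ± 0.08 in DND-41, with an approximate 95% interval from -0.15 to 0.18, and -0.10 ± 0.08 in MOLT-4, with an interval from -0.26 to 0.06 (edgeR adjusted p = 0.966 and 0.511). These intervals bound what the data allow and do not show that MDM2 stayed the same.

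PHLDA3 (ENSG00000174307), a p53 target whose protein competes with AKT for membrane lipids, had 115 and 101 reads in DMSO and 64 and 49 with ACBI-1 in MOLT-4. The groups did not overlap, and the transcript fell by 0.96 ± 0.19, to a level 1.95-fold lower (edgeR adjusted p = 8.20e-04; DESeq2 adjusted p = 0.0216). In DND-41 it had 92 and 89 reads in DMSO and 53 and 68 with ACBI-1, which did not overlap either, but the log2 fold change of -0.59 ± 0.20 missed the threshold (edgeR adjusted p = 0.0556). The difference between the lines was -0.35 ± 0.27 (edgeR adjusted p = 0.859). The MOLT-4 call was lost without the first ACBI-1 library (-1.15, edgeR adjusted p = 0.306) and without the second (-0.79, adjusted p = 0.226). In DND-41 PHLDA3 passed in a fit of all 8 libraries (edgeR adjusted p = 0.0473). The overlapping transcript AC096677.2 on the same strand had between 0 and 10 reads.

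The sestrins restrain mTORC1, the kinase complex that couples growth to nutrients: Sestrin1 and Sestrin2 bind the GATOR2 complex, and Sestrin2 senses leucine. SESN2 (ENSG00000130766) had 2480 and 2435 reads in DMSO and 1130 and 1494 with ACBI-1 in DND-41. It fell by 0.92 ± 0.08, to a level 1.89-fold lower (edgeR adjusted p = 8.74e-10), and both ACBI-1 libraries were far below both DMSO libraries. In MOLT-4 it had 702 and 653 reads in DMSO and 554 and 536 with ACBI-1, with no overlap, and fell by 0.34 ± 0.08 (edgeR adjusted p = 0.00572; DESeq2 adjusted p = 0.0579). The fall was smaller in MOLT-4 than in DND-41 by 0.60 ± 0.13 on the log2 scale (edgeR adjusted p = 0.0182; DESeq2 adjusted p = 0.0272), so SESN2 fell in both lines but to different degrees.

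Without the first ACBI-1 library of DND-41, which held the lowest SESN2 value, the fall in that line was -0.74 (edgeR adjusted p = 0.0940). The MOLT-4 call for SESN2 was lost without its first ACBI-1 library (edgeR adjusted p = 0.345), without the second (0.246) and without the first DMSO library (0.0596). The difference between the lines for SESN2 missed the threshold without 5 of the 8 libraries in turn, at edgeR adjusted p values of 0.0697 (first ACBI-1 library of DND-41), 0.0548 (its second DMSO library), 0.200 and 0.190 (the first and second ACBI-1 libraries of MOLT-4) and 0.148 (the second DMSO library of MOLT-4). Its direction was the same each time.

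SESN1 (ENSG00000080546) was not called in either line, while SESN3 (ENSG00000149212) fell in MOLT-4, as SESN2 did. SESN1 had 138 and 121 reads in DMSO and 167 and 139 with ACBI-1 in DND-41, and 212 and 228 against 285 and 279 in MOLT-4. The MOLT-4 groups did not overlap, yet the log2 fold change of 0.33 ± 0.11 missed the threshold (edgeR adjusted p = 0.0590), and in DND-41 it was 0.23 ± 0.15 (adjusted p = 0.419). SESN3 had 268 and 342 reads in DMSO and 240 and 232 with ACBI-1 in MOLT-4, and fell by 0.40 ± 0.12 (edgeR adjusted p = 0.0294; DESeq2 adjusted p = 0.205). The SESN3 call was lost without either ACBI-1 library (edgeR adjusted p = 0.491 without the first and 0.405 without the second) and without the second DMSO library, when the value was -0.21 (0.475). It was also lost with scaling by total counts (edgeR adjusted p = 0.0763) and in a fit of all 8 libraries (0.0648).

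In DND-41, SESN3 was near 0, with 0 and 3 reads in DMSO and 2 and 3 with ACBI-1. In the second DMSO library of DND-41, the share measured on 35 genes would correspond to 52.4% of the SESN3 level (0.0780 of 0.149 CPM). For the other genes the same calculation gave at most 1.98% of the level in any library of either line. Whether any of these reads came from the other line was not tested.

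GADD45 proteins bind the kinase MAP3K4 upstream of p38 and JNK and take part in DNA repair and demethylation. GADD45B (ENSG00000099860) had 1149 and 1259 reads in DMSO and 2211 and 2590 with ACBI-1 in DND-41. It rose by 0.99 ± 0.08, or 1.98-fold (edgeR adjusted p = 3.42e-11), with no overlap. In MOLT-4, where it had 129 and 110 reads in DMSO and 132 and 160 with ACBI-1, the groups did not overlap in reads but the log2 fold change of 0.26 ± 0.15 was not called (edgeR adjusted p = 0.338, interval -0.04 to 0.56). The response was lower in MOLT-4 than in DND-41 by 0.70 ± 0.17 (edgeR adjusted p = 0.0488; DESeq2 adjusted p = 0.0224), close to the threshold.

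The rise of GADD45B in DND-41 was 1.08 without the first ACBI-1 library (edgeR adjusted p = 0.0867) and passed without any other library. The difference between the lines for GADD45B missed the threshold without 6 of the 8 libraries in turn. Its edgeR adjusted p was 0.0888 without the second ACBI-1 and 0.124 without the first DMSO library of DND-41. It was 0.365 and 0.0682 without the first and second ACBI-1 libraries of MOLT-4, and 0.277 and 0.0576 without the first and second DMSO libraries of MOLT-4.

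GADD45A (ENSG00000116717), the family member that p53 induces directly, was not called in either line. It had 226 and 261 reads in DMSO and 226 and 280 with ACBI-1 in DND-41, and 109 and 98 against 119 and 84 in MOLT-4. The groups overlapped in both lines. The log2 fold changes were 0.05 ± 0.12 and -0.06 ± 0.17 (edgeR adjusted p = 0.896 and 0.897), with intervals from -0.19 to 0.28 and from -0.40 to 0.28.

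PLK2 and PLK3 are polo-like kinases of the stress response and of cell-cycle entry, unlike the mitotic kinase PLK1. PLK2 (ENSG00000145632), whose sequence above holds the p53 half-site, had few reads: 23 and 18 in DMSO and 78 and 90 with ACBI-1 in DND-41, and 19 and 11 in DMSO and 4 and 6 with ACBI-1 in MOLT-4. It rose by 2.02 ± 0.26 in DND-41, or 4.05-fold (edgeR adjusted p = 1.09e-06), and fell by 1.59 ± 0.51 in MOLT-4, to a level 3.01-fold lower (edgeR adjusted p = 0.0441; DESeq2 gave no adjusted p). The groups did not overlap in either line, and PLK2 was the gene among the 10 that passed in opposite directions. The difference between the responses was -3.58 ± 0.57 (edgeR adjusted p = 9.33e-04; DESeq2 adjusted p = 6.23e-04).

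That difference for PLK2 passed under all 15 alternatives tried, each library left out in turn included, with edgeR adjusted p at most 0.0460. The calls within the lines were less firm. The rise in DND-41 was 2.10 without the first ACBI-1 library (edgeR adjusted p = 0.0969). The MOLT-4 fall was lost without the first ACBI-1 library (-1.32, edgeR adjusted p = 0.474), without the second (-1.91, 0.313) and without the first DMSO library (-1.15, 0.394), and with scaling by total counts (0.0655).

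PLK3 (ENSG00000173846) had 220 and 237 reads in DMSO and 256 and 295 with ACBI-1 in DND-41, and 330 and 327 against 315 and 273 in MOLT-4. The groups did not overlap in either line, and the 2 log2 fold changes had opposite signs, 0.26 ± 0.12 and -0.19 ± 0.11, but neither was called (edgeR adjusted p = 0.177 and 0.303). The difference of -0.43 ± 0.16 was not called (edgeR adjusted p = 0.378).

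**Figure D2:**
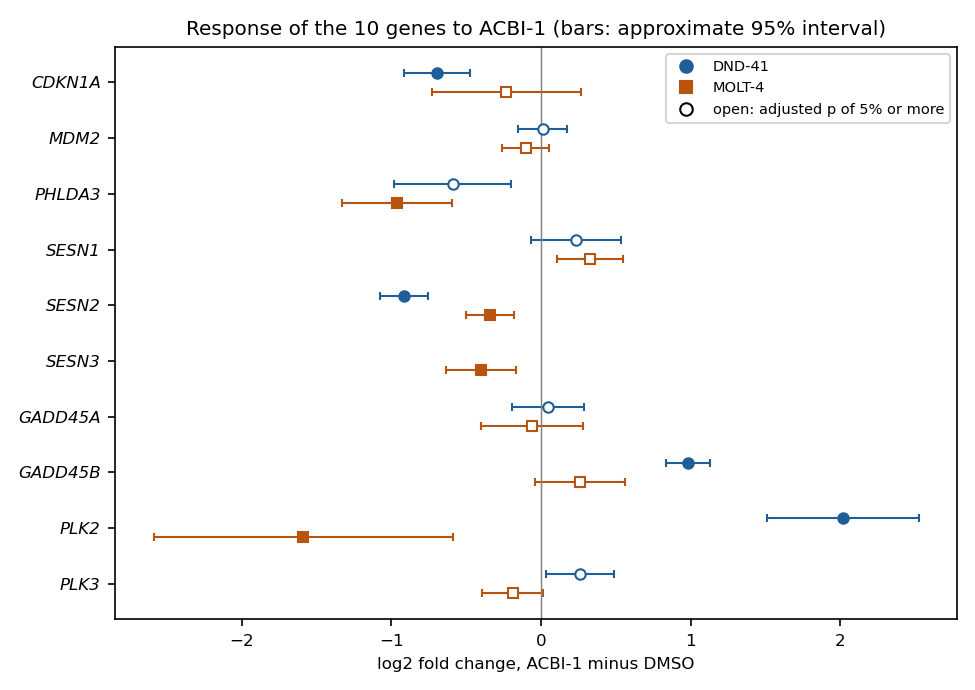
Log2 fold change, ACBI-1 minus DMSO (horizontal axis), of the 10 genes in DND-41 (blue circles) and MOLT-4 (orange squares) from edgeR; bars span the approximate 95% interval and open symbols have an adjusted p of 5% or more. PLK2 lies right of 0 in DND-41 (2.02) and left of 0 in MOLT-4 (-1.59), and SESN2 left of 0 in both lines at -0.92 and -0.34; SESN3 was not tested in DND-41.

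Tested directly, the responses of the lines differed for 3 of the 10 genes, SESN2, GADD45B and PLK2, where 0.641% of 15604 genes were called. DESeq2 also called 3 (0.714% of genes). For the other 7 genes the difference was not shown, and its interval reached from -0.05 to 1.02 for CDKN1A, from -0.32 to 0.14 for MDM2 and from -0.88 to 0.19 for PHLDA3.

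The lines themselves differed in these genes before any treatment. In DMSO, 8 of 10 genes were called between the lines, beside 64.4% of all genes, so a call was the common case. CDKN1A was 8.50-fold lower in MOLT-4 (-3.09 ± 0.16, edgeR adjusted p = 6.78e-16), GADD45B 9.65-fold lower (-3.27 ± 0.11, 5.17e-20), SESN2 3.48-fold lower (-1.80 ± 0.09, 1.93e-16) and GADD45A 2.25-fold lower (-1.17 ± 0.15, 1.44e-07). MDM2 was higher in MOLT-4 (0.61 ± 0.08, edgeR adjusted p = 3.79e-07), as were SESN1 (0.83 ± 0.13, 4.59e-06) and PLK3 (0.58 ± 0.11, 4.20e-05). SESN3 had 610 reads over the MOLT-4 libraries against 3 over those of DND-41, a ratio of 205 with a 95% interval of 69.8 to 996 that covers counting error only (edgeR adjusted p = 1.58e-17). PLK2 at -0.39 ± 0.37 and PHLDA3 at 0.32 ± 0.17 were not called (edgeR adjusted p = 0.372 and 0.113).

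With ACBI-1, 8 of 10 genes were again called between the lines (64.8% of all genes). This comparison shares its libraries with those within the lines. PLK2 was now called, at a level 15.7-fold lower in MOLT-4 (-3.97 ± 0.35, edgeR adjusted p = 1.16e-10), and PLK3 was not (0.16 ± 0.11, 0.205). GADD45B was 15.7-fold lower in MOLT-4 (-3.97 ± 0.10) and SESN2 2.30-fold lower (-1.20 ± 0.09).

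**Figure D3:**
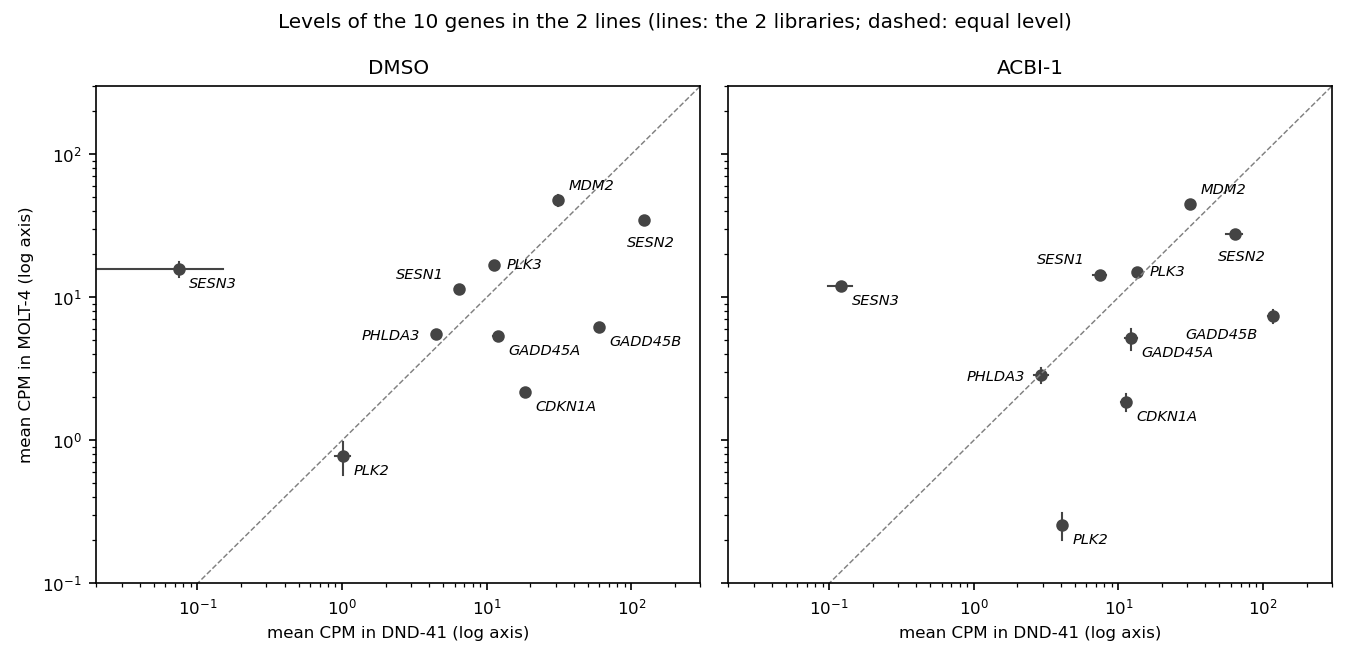
Mean CPM of the 10 genes in MOLT-4 (vertical, log axis) against DND-41 (horizontal, log axis) in DMSO (left) and with ACBI-1 (right); points are means of 2 libraries, lines join the libraries and the dashed line marks equal level. CDKN1A, GADD45A, GADD45B and SESN2 lie below the dashed line in both panels, SESN3 lies far above it, and PLK2 moves from 1.01 CPM in DND-41 and 0.773 in MOLT-4 to 4.08 and 0.255; 1 DMSO library of DND-41 had 0 reads of SESN3, which a log axis cannot show.

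Compared between genes per kilobase of merged exons (GENCODE release 29), SESN2 was the highest of the 10 in DND-41 with DMSO, at 35.2 ± 0.252 CPM per kilobase (SD, n = 2), above GADD45B at 27.8 ± 1.96. CDKN1A at 6.05 ± 0.527 and GADD45A at 5.82 ± 0.625 overlapped in their libraries. PLK3 (3.25), MDM2 (2.36), PHLDA3 (1.43), SESN1 (1.25), PLK2 (0.212) and SESN3 (0.0070) followed without overlap between neighbours. With ACBI-1 the order at the top turned, to GADD45B at 54.5 ± 5.38 and SESN2 at 18.4 ± 3.38. In MOLT-4 SESN2 led in both treatments, at 10.1 ± 0.498 in DMSO and 8.03 ± 0.0809 with ACBI-1, followed by PLK3 at 4.87 and 4.30. CDKN1A was the ninth of 10 in MOLT-4, at 0.710 ± 0.0464 in DMSO, and PLK2 the last.

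Other members of the same protein families were looked at next. CDKN1B, which encodes the related kinase inhibitor p27, had 1234 and 1250 reads in DMSO and 889 and 963 with ACBI-1 in DND-41 and fell by 0.43 ± 0.08 (edgeR adjusted p = 1.30e-04). In MOLT-4 it was at -0.21 ± 0.08 (adjusted p = 0.0721). PLK1, the mitotic kinase, fell in DND-41 (-0.27 ± 0.07, edgeR adjusted p = 0.0106) and was at -0.07 ± 0.06 in MOLT-4. Of the family genes, 2 of 5 tested fell in DND-41 (6.05% of all genes did) and 0 of 4 were called in edgeR in MOLT-4 (2 at an unadjusted p under 0.05; DESeq2 0), beside 10.8% of all genes. GADD45G had 67 and 62 reads in DMSO and 103 and 87 with ACBI-1 in DND-41 (0.55 ± 0.19, edgeR adjusted p = 0.0714) and at most 4 reads in MOLT-4, while PHLDA2 had at most 3 reads in any library.

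CDKN1C, the gene of a further inhibitor of this family, had 0 reads in DND-41 and between 11 and 21 in MOLT-4. PHLDA1 had a value of -0.17 ± 0.21 and PLK4, a kinase of centriole duplication, at 0.07 ± 0.07 in DND-41, neither of them called. Neither family call held without the first or the second ACBI-1 library of DND-41, when 0 of the family genes passed in edgeR (2 and 3 at an unadjusted p under 0.05), and that of PLK1 was also lost without either DMSO library.

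Of 15 regulators of p53, 2 were called in each line, beside 9.83% of all genes in DND-41 and 10.8% in MOLT-4. MDM4, a partner of MDM2 in holding p53 inactive, had log2 fold changes (± SE) of 0.04 ± 0.09 in DND-41 and -0.26 ± 0.09 in MOLT-4 (edgeR adjusted p = 0.877 and 0.0764), and PPM1D, a phosphatase that shuts the p53 response off, was at -0.13 ± 0.10 and -0.05 ± 0.08. In DND-41 1 of the 15 rose and 1 fell: ATR, the kinase of replication stress, at 0.27 ± 0.08, and TP73, a p53 relative, at -0.53 ± 0.08. In MOLT-4 0 rose (4 of the 15 at an unadjusted p under 0.05; DESeq2 called 2) and 2 fell, EP300, an acetyltransferase that acts on p53 (-0.28 ± 0.06), and HIPK2, a kinase of p53 (-0.28 ± 0.07). CDKN2A, which encodes the MDM2 inhibitor ARF and the kinase inhibitor p16, had between 10734 and 11276 reads in DND-41 and between 9 and 42 in MOLT-4.

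The TP73 call passed without any library but the first ACBI-1 library of DND-41, and that of ATR was lost without each of the 4 in turn. In MOLT-4 both calls were lost without either ACBI-1 library, and that of HIPK2 also without the second DMSO library. Without the first DMSO library of MOLT-4 the number called was 6 of 15, namely MDM4, ATM, CHEK2, CDKN2A, EP300 and HIPK2, beside 9.53% of all genes.

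A wider list of p53 target genes held 24 tested genes in DND-41, of which 1 rose and 5 fell, and 23 in MOLT-4, of which 1 rose and 4 fell. Of all genes, 3.78% rose and 6.05% fell in DND-41, and 3.9% and 6.94% in MOLT-4. The median log2 fold change of the list was -0.08 and -0.06. BBC3, the gene of the BH3-only protein PUMA, had 238 and 204 reads in DMSO and 72 and 99 with ACBI-1 in DND-41 and fell by 1.38 ± 0.16 (edgeR adjusted p = 1.31e-07). In MOLT-4 BBC3 had at most 20 reads and was at -0.94 ± 0.41 (adjusted p = 0.166).

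The death receptor genes TNFRSF10B and FAS and PMAIP1, the gene of the BH3-only protein NOXA, fell in both lines in edgeR. With DESeq2 this held for PMAIP1 alone of the 3, since FAS was not called in DND-41 (DESeq2 adjusted p = 0.0849) nor TNFRSF10B in MOLT-4 (0.242). TNFRSF10B had 185 and 192 reads in DMSO and 106 and 96 with ACBI-1 in DND-41, and 107 and 75 against 61 and 55 in MOLT-4. It was at -0.91 ± 0.15 and -0.68 ± 0.20 (edgeR adjusted p = 6.49e-05 and 0.0292), and the MOLT-4 call was also lost with scaling by total counts. FAS, with 234 and 209 against 141 and 166 reads in DND-41 and 243 and 241 against 130 and 131 in MOLT-4, was at -0.54 ± 0.13 and -0.92 ± 0.13 (edgeR adjusted p = 0.00682 and 1.08e-05). In each of these the ACBI-1 libraries lay below the DMSO libraries of the same line.

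PMAIP1 had log2 fold changes of -0.45 ± 0.08 and -0.60 ± 0.11 (edgeR adjusted p = 1.62e-04 and 2.62e-04). CD82, a tetraspanin gene, fell as well (-0.26 ± 0.07 and -0.29 ± 0.07), and the gene of the translesion polymerase, POLH, rose in both lines (0.29 ± 0.08 and 0.23 ± 0.07); the DND-41 values of both, and POLH in MOLT-4, were chosen after their values were seen. DESeq2 called POLH in neither line (adjusted p = 0.0650 and 0.160), and it missed a threshold of 1% in both. BAX, another apoptosis gene of the list, was at -0.15 ± 0.07 and -0.13 ± 0.07 and was not called. The responses of the lines differed for 0 of 24 genes of the list in edgeR, with 0 at an unadjusted p under 0.05 and 0 in DESeq2.

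**Figure D4:**
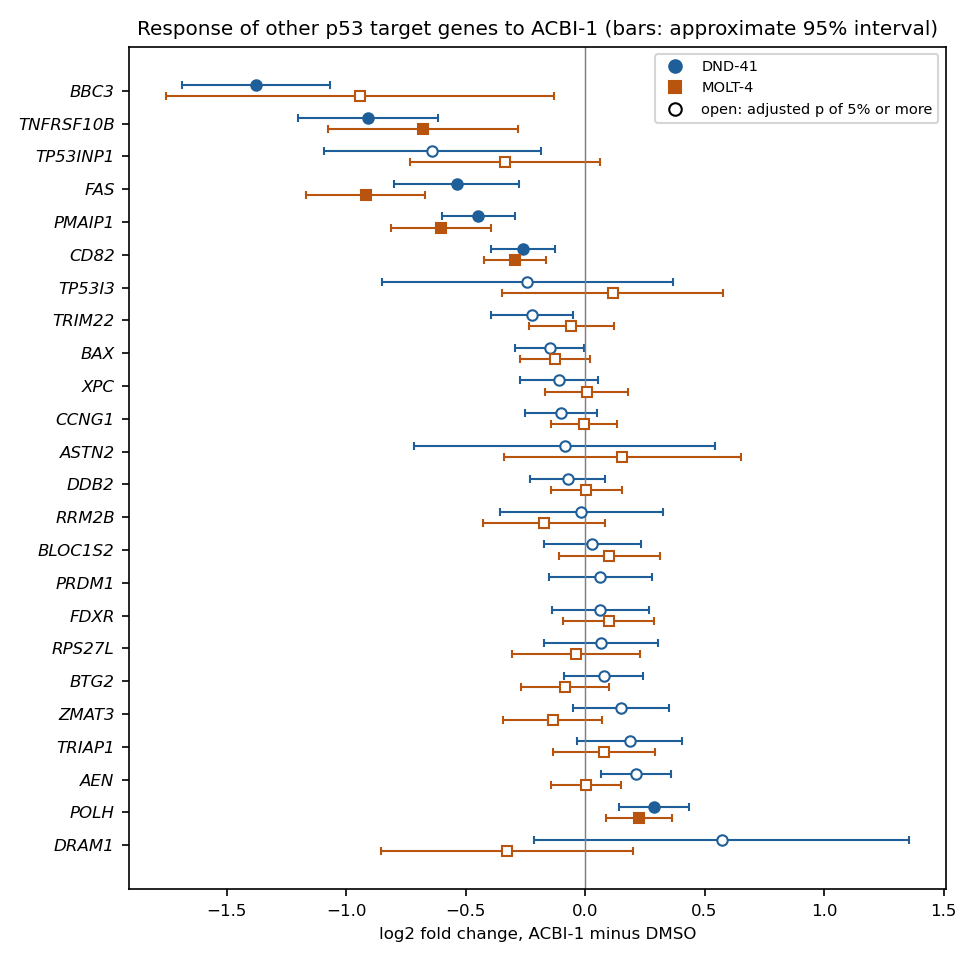
Log2 fold change, ACBI-1 minus DMSO (horizontal axis), of the tested genes of the wider p53 target list in DND-41 (blue circles) and MOLT-4 (orange squares), in the order of the DND-41 values; bars span the approximate 95% interval and open symbols have an adjusted p of 5% or more. The filled symbols left of 0 belong to BBC3 (DND-41 alone, at -1.38), TNFRSF10B, FAS, PMAIP1 and CD82, and those right of 0 to POLH at 0.29 and 0.23.

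These calls also became fewer without 1 ACBI-1 library. Over the whole table the number called was lower than with all libraries without any 1 library, of either treatment, in both lines. In DND-41, 0 genes of the wider list passed in edgeR without the first ACBI-1 library (9 at an unadjusted p under 0.05) and 1, BBC3, without the second; 3 passed without the first DMSO library and 4 without the second. In MOLT-4 0 passed without either ACBI-1 library (4 at an unadjusted p under 0.05 each time), 2 passed without the first DMSO library, FAS and PMAIP1, and 5 without the second.

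Genes of the other inputs to the sestrins and GADD45 genes were counted in the same way, against 9.83% of all genes called in DND-41 (3.78% higher, 6.05% lower) and 10.8% in MOLT-4 (3.9% and 6.94%). ATF4 had log2 fold changes of -0.02 ± 0.08 and 0.11 ± 0.06, while of its list of targets and partners, ATF4 included, 0 of 17 tested rose and 3 fell in DND-41 (3 at an unadjusted p under 0.05; DESeq2 called 1) and 0 of 19 rose and 6 fell in MOLT-4 (8; DESeq2 called 4). The list median was -0.11 and -0.03. TRIB3, a pseudokinase that feeds back on ATF4, fell in both lines (-0.31 ± 0.08 and -0.79 ± 0.12). DDIT4, which encodes the mTORC1 inhibitor REDD1, had 345 and 375 reads in DMSO and 170 and 183 with ACBI-1 in MOLT-4, a fall of 1.06 ± 0.11, and was at -0.17 ± 0.10 in DND-41. Its response differed between the lines by -0.86 ± 0.16 (edgeR adjusted p = 0.00565), which was lost without the first ACBI-1 library of MOLT-4. STC2, a secreted glycoprotein gene, fell in MOLT-4 (-0.97 ± 0.14) and had at most 1 read in DND-41.

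Of the FOXO factors and their targets 3 of 15 rose and 4 fell in DND-41, and 3 of 16 rose and 5 fell in MOLT-4, so 7 of 15 and 8 of 16 were called, against the shares of all genes just given. DESeq2 called 5 and 3 of them, beside 5.48% and 6.17% of all genes. BCL2L11, the gene of the apoptosis inducer BIM, rose in both lines (0.52 ± 0.07 and 0.41 ± 0.08), as did CITED2, a transcriptional co-regulator (0.44 ± 0.09 and 0.37 ± 0.08), whereas TXNIP, a thioredoxin inhibitor, fell in both (-0.53 ± 0.10 and -0.48 ± 0.07). FOXO3 rose in DND-41 (0.26 ± 0.08, edgeR adjusted p = 0.0332) and was at 0.05 ± 0.07 in MOLT-4, and FOXO1 was at 0.11 ± 0.14 in DND-41. The rise of FOXO3 was not called by DESeq2 or at 1%. Members of this list thus passed in both directions.

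The GATOR and mTORC1 genes on which sestrins act had 1 rise and 1 fall among 17 in DND-41 and 1 and 2 among 17 in MOLT-4, against 9.83% and 10.8% of all genes called. RRAGD, a Rag GTPase, fell in both lines (-0.55 ± 0.11 and -0.39 ± 0.10). DEPDC5, a subunit of GATOR1, rose in DND-41 (0.33 ± 0.08), and NPRL3, also a subunit of GATOR1, rose in MOLT-4 (0.29 ± 0.08). RHEB, the GTPase that activates mTORC1, fell in MOLT-4 (-0.20 ± 0.07, edgeR adjusted p = 0.0488). That call was lost with scaling by total counts, at 1% and in the fit of all 8 libraries. DESeq2 called RRAGD alone in DND-41 and NPRL3 alone in MOLT-4, beside 5.48% and 6.17% of all genes.

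Among the cyclins, kinases and cell-cycle genes downstream of p21, 0 of 21 rose and 1 fell in DND-41, PLK1 (3 at an unadjusted p under 0.05; DESeq2 called 1). In MOLT-4 1 of 22 rose, the D-type cyclin gene CCND3 (0.37 ± 0.06), and 2 fell, the E-type cyclin gene CCNE1 (-0.49 ± 0.10) and LIN54, a DNA-binding subunit of the DREAM complex (-0.39 ± 0.07). The cell-cycle counts, like those that follow, stand beside 9.83% of all genes called in DND-41 and 10.8% in MOLT-4. Of 10 kinases and feedback genes around GADD45, 1 rose and 2 fell in DND-41 and 1 rose and 3 fell in MOLT-4. NFKBIA, the inhibitor of NF-kB, fell in both lines (-0.52 ± 0.08 and -0.52 ± 0.08). In edgeR MAP2K3, a kinase of p38, did so too (-0.53 ± 0.10 and -0.25 ± 0.08). The MOLT-4 fall of MAP2K3 (edgeR adjusted p = 0.0366) was not called by DESeq2, with scaling by total counts, at 1% or in the fit of all 8 libraries. The p38 gene MAPK14 rose in MOLT-4 (0.27 ± 0.06). TNFAIP3, a deubiquitinase that limits NF-kB, had 1273 and 1228 reads in DMSO and 1477 and 1658 with ACBI-1 in DND-41, and 1152 and 1068 against 933 and 990 in MOLT-4. It rose in DND-41 (0.32 ± 0.07) and fell in MOLT-4 (-0.24 ± 0.07), a difference of -0.53 ± 0.10 (edgeR adjusted p = 0.00881). The fall in MOLT-4 (edgeR adjusted p = 0.0361) was not called by DESeq2 (0.184), with scaling by total counts, at 1% or in the fit of all 8 libraries. The difference for TNFAIP3 was lost without the second DMSO library of DND-41 or the first ACBI-1 library of MOLT-4, when 0 of these 10 genes passed in edgeR (2 and 1 at an unadjusted p under 0.05).

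Without the first ACBI-1 library of DND-41, or either ACBI-1 library of MOLT-4, 0 genes of these 5 lists passed within that line in edgeR. The numbers at an unadjusted p under 0.05 were then 5, 8, 5, 4 and 3 for the ATF4, FOXO, GATOR, cell-cycle and GADD45 lists in DND-41. In MOLT-4 they were 6, 5, 1, 3 and 4 without the first ACBI-1 library and 6, 8, 4, 4 and 3 without the second. Without the second ACBI-1 library of DND-41 the numbers called were 1, 0, 0, 0 and 2, the 3 genes being TRIB3, MAP2K3 and NFKBIA. Without 1 DMSO library the number called over the whole table was also lower than with all libraries, in both lines.

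The genes with the pattern nearest to that of CDKN1A and SESN2 were sought among 9302 genes with a mean of at least 5 CPM in both lines, by Euclidean distance between log2 CPM values centred on each line over the 8 libraries. Nearest to CDKN1A were SLC16A13 (0.293), SYTL1 (0.299) and RP11-182L21.6 (0.311). Nearest to SESN2 were ARID5A (0.238), MAGEF1 (0.285) and LRIG1 (0.312). ARID5A, which encodes an RNA-binding protein, had 1090 and 1100 reads in DMSO and 513 and 678 with ACBI-1 in DND-41, and 853 and 814 against 564 and 586 in MOLT-4. In the first ACBI-1 library of DND-41 both ARID5A and SESN2 had fewer reads than in the second. ARID5A was chosen for its closeness to SESN2 in these same libraries, so this likeness is not a separate result.

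In the authors' deposited table for DND-41, 4 of the 10 genes had an adjusted p under 5%. In the authors' deposited table for MOLT-4, 1 of the 10 did, PHLDA3 (adjusted p = 0.0365). The share of all genes that passed in these deposited tables was not counted. In DESeq2 as run here, which called 4 and 1 of the 10, the share of all genes was 5.48% and 6.17%. The log2 fold changes computed here correlated with those of the authors' deposited table at 0.99998 across genes for DND-41 and at -0.99998 for MOLT-4, so the MOLT-4 table is written as DMSO minus ACBI-1.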

How the data were processed

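RNA sequencing of 8 libraries was analysed from read counts. The authors deposited 1 table of raw counts per line, without normalization. They also deposited 1 table of their own comparison per line, with a log2 fold change, a p-value, an adjusted p-value, a mean signal and a test score per gene, as the file headers say. The submitters' processing notes name STAR 2.5.2a, featureCounts, DESeq2 1.12.4 and hg19. How strand entered the counting is not given in the sources used here. Reads of antisense or overlapping genes (near MDM2, SESN1, SESN3, PLK3 and PHLDA3) could not be separated. Groups came from the titles in the labels.

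Counts were tested here with edgeR 4.0.16 (limma 3.58.1, R 4.3.3): TMM scaling, filterByExpr, quasi-likelihood test, Benjamini-Hochberg adjustment over all genes tested, threshold 5%. The comparison within a line used the 4 libraries of that line. The difference between responses, and the lines against each other, came from 1 fit of all 8. An adjusted p without a tool named is from edgeR. CPM values use TMM factors over 8 libraries. Intervals of log2 fold changes are 95% by normal approximation from the SE. The fits were tried on simulated counts with the same spread for every gene and changes placed only in well-read genes. That check does not cover the spread between these libraries or genes with few reads. Alternatives were DESeq2 1.42.0, its size factors within edgeR, total-count scaling, no filter, a minimum of 10 reads in 2 libraries, a threshold of 1%, the replicate number as a block, 1 fit of all 8 libraries and leaving out each library. At this depth 1 CPM is about 20 reads.

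The 10 genes and all lists were chosen with earlier results of these data known. The list genes named were drawn from up to 4 per list and comparison with the smallest p among those called. Of these, TNFSF10, IRS2, VLDLR, PPP1R15A and SLC3A2 were left out of the text. Family genes and MDM4, PPM1D, FOXO1, FOXO3 and ATF4 were always named. BAX and CDKN2A were added after their values were seen, as were the genes completing a small count. Gene lengths came from GENCODE release 29 (GRCh38) by Ensembl identifier, and only names and lengths, not positions, were joined to the hg19 counts. TIGAR was not matched by symbol. 1 gene of the list of regulators is not reported here.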

Additional observations from a re-analysis of the deposited data

Results flagged for a closer look

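The responses of the lines to ACBI-1 differed, by the test of the difference itself (edgeR, fit of 8 libraries), for 5 of the genes named. Of all 15604 genes tested, 0.641% were called. DDIT4 and TNFAIP3 were named because they were called, so 5 is not a share of the genes looked at. On the log2 scale, MOLT-4 minus DND-41, the difference was 0.60 for SESN2, -0.70 for GADD45B and -3.58 for PLK2. It was -0.86 for DDIT4 and -0.53 for TNFAIP3, which are not among the 10 genes. For PLK2 and TNFAIP3 the transcript rose in DND-41 and fell in MOLT-4, but the MOLT-4 fall of TNFAIP3 (edgeR adjusted p = 0.0361) was not called by DESeq2, with scaling by total counts, at 1% or in the fit of all 8 libraries, and that of PLK2 (0.0441) not with scaling by total counts or at 1%. SESN2 fell in both lines, DDIT4 fell in MOLT-4 and GADD45B rose in DND-41. At 1% the differences for SESN2 and GADD45B were not called, and without a filter on low counts PLK2 alone of the 5 passed. The dependence of the differences for SESN2, GADD45B, DDIT4 and TNFAIP3 on single libraries is given above.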

How the results depend on the processing

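Of the values for the 10 genes within lines and between responses, 315 kept direction and call under the alternatives, 46 lost the call, 3 gained it and 13 changed sign, all 13 for uncalled values. Among the 10 genes, 0 were called in DND-41 without a filter on low counts (6 at an unadjusted p under 0.05), against 4. In MOLT-4, 1 was called with DESeq2, 2 with total-count scaling, 0 without a filter (5 at an unadjusted p under 0.05) and 2 at a threshold of 1%, against 4. For the difference between responses, 1 was called without a filter and 1 at 1%, against 3. Of the other p53 targets, 0 were called in DND-41 without a filter (8 at an unadjusted p under 0.05), and in MOLT-4 3 with DESeq2, 0 without a filter (6) and 3 at 1%. The cause was not tested. Over all genes, DESeq2 called 664 in DND-41 and 754 in MOLT-4, no filter left 2 and 39, and 1% left 763 and 879, against 1378 and 1568; for the difference, no filter left 13 and 1% left 50, against 100.

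Leaving out 1 library at a time, 0 to 4 of the 10 genes were called in DND-41, 0 to 3 in MOLT-4 and 1 to 2 for the difference, and 0 to 4 and 0 to 5 of the other p53 targets in DND-41 and MOLT-4. Between the lines 8 were called each time in DMSO and with ACBI-1. MDM2 changed sign in DND-41 to -0.0040 in the fit of all 8 libraries. With 1 library left out, uncalled values that crossed 0 ranged from -0.025 to 0.048 (MDM2, DND-41), -0.21 to 0.022 (MDM2, MOLT-4), -0.23 to 0.0069 (MDM2, difference), -0.10 to 0.18 (GADD45A, DND-41), -0.32 to 0.17 (GADD45A, MOLT-4), -0.37 to 0.11 (GADD45A, difference) and -0.019 to 0.28 (SESN1, difference).

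Whether the replicate numbers pair the libraries could not be decided from 2 pairs in each line. Deviations of equal numbers correlated across genes at 0.0422 (DND-41) and 0.0434 (MOLT-4). With the replicate number as a block, 5 of the 10 genes were called in DND-41 (PHLDA3 added), 5 in MOLT-4 (SESN1 added) and 3 for the difference, 9 and 5 of the other p53 targets, and 2230, 2228 and 302 of all genes. Genes under about 20 reads, such as PLK2 in MOLT-4, are limited by depth.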
